A study of Mus musculus with 10 samples.

Results

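The 39 immediate early and primary response genes described here were chosen by name as rows of the expression table of interscapular brown adipose tissue (iBAT), which lists 27267 genes. They cover the AP-1 factors (*Fos*, *Fosb*, *Fosl1*, *Fosl2*, *Jun*, *Junb*, *Jund*), the EGR factors (*Egr1*, *Egr2*, *Egr3*), other bZIP factors (*Atf3*, *Maff*, *Nfil3*), the NR4A receptors (*Nr4a1*, *Nr4a2*, *Nr4a3*), the KLF factors (*Klf2*, *Klf4*, *Klf6*), the DUSP phosphatases (*Dusp1*, *Dusp2*, *Dusp5*, *Dusp6*), the ZFP36 family (*Zfp36*, *Zfp36l1*, *Zfp36l2*), *Btg1* and *Btg2*, *Ier2*, *Ier3* and *Ier5*, and 8 others (*Myc*, *Trib1*, *Csrnp1*, *Cited2*, *Gadd45b*, *Gadd45g*, *Rhob*, *Nfkbiz*). Of the 39 genes, 37 had a mean normalized count of at least 10 and were tested, and *Fosl1* and *Dusp2* were below it. The question put to the data was which of them differed between wild-type and global *Mgp*-KO iBAT, over all libraries and separately within replicates 1 to 3 and within replicates 4 and 5, and how library *Mgp*-KO 5 related to the rest.

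RNA was sequenced from the iBAT of 5 wild-type mice and of 5 mice labelled *Mgp*-KO. All 10 mice are labelled as C57BL/6 males of 4 weeks of age and all were fed chow. The knockout is the constitutive, body-wide Mgptm1Kry allele, so it is not limited to any cell type of the depot. *Mgp* encodes matrix Gla protein, an extracellular inhibitor of bone morphogenetic proteins. The deposited values are normalized counts, that is, the reads counted on a gene divided by the size factor of its library.

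Some libraries went against their labels or stood apart. *Mgp* itself had 466 to 1146 normalized counts in wild type and 0, 0.765 and 0.821 in *Mgp*-KO 1 to 3, whereas *Mgp*-KO 4, so labelled, had 500 (309 reads) and *Mgp*-KO 5 had 331 (282 reads). Wild type 2, labelled male, had 5094 normalized counts of *Xist* where the other libraries had 0.754 to 44.0, and 3.74 normalized counts summed over 4 Y chromosome genes where the others had 1457 to 7035. All labels were kept as given. Replicates 4 and 5 of both genotypes had fewer reads on genes (9253793 to 13281873) than replicates 1 to 3 (19616366 to 22252260), and 6.50 to 16.7% of their reads on mitochondrial ribosomal RNA against 0.771 to 1.72%. The value of 3 reads, taken as the floor of detection, lay between 2.15 and 5.19 normalized counts, and it covers counting error only. All 12 marker genes of brown adipocytes were detected in every library.

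Immediate early genes are transcribed within minutes of a stimulus by factors that are already present in the cell, without new protein synthesis. Growth factors reach them through the kinases ERK and RSK and the serum response factor, which binds CArG boxes, and hormones that raise cyclic AMP reach them through CREB, which binds cyclic AMP response elements (CRE). In brown fat, sympathetic noradrenaline acts through the cyclic AMP route. Many of the products are short-lived transcription factors, and others shut the response down again, such as the DUSP phosphatases that inactivate MAP kinases and the ZFP36 proteins that promote decay of AU-rich mRNAs.

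The promoters of 6 of the 12 genes that passed in limma within replicates 1 to 3 (given below) are printed here. They are 5 that rose in *Mgp*-KO 1 to 3 and *Klf2*, which fell. Each is the 250 bases before a RefSeq transcription start in GRCm38.p6, read 5′ to 3′ on the strand of the gene. Capitals mark a full CRE (TGACGTCA), its core (TGACG) or, in *Zfp36*, a CArG box. All 6 printed windows hold such a site, which was not so for every gene that passed. Of those not printed, the windows of *Dusp6* and *Gadd45b* held none of the motifs searched for. That of *Klf4* held a CRE core and that of *Zfp36l1* an AP-1 site, and *Egr1* and *Ier2* had no matched promoter. Counted from the transcription start, the full CRE of *Btg2* spans -166 to -159 and that of *Dusp1* -143 to -136, the cores of *Fos* lie at -129 to -125 and -66 to -62, and the CArG box of *Zfp36* at -58 to -49. The windows are chr12:85473640-85473889 (+ strand) for *Fos*, chr8:84978749-84978998 (- strand) for *Junb*, chr1:134079156-134079405 (- strand) for *Btg2*, chr7:28379229-28379478 (- strand) for *Zfp36*, chr17:26508473-26508722 (- strand) for *Dusp1* and chr8:72318812-72319061 (+ strand) for *Klf2*.
*Fos*: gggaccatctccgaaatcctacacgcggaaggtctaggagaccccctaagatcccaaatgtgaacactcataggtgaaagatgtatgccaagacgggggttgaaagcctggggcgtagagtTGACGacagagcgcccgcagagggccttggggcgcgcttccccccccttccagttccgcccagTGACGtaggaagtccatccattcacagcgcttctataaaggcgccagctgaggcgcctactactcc
*Junb*: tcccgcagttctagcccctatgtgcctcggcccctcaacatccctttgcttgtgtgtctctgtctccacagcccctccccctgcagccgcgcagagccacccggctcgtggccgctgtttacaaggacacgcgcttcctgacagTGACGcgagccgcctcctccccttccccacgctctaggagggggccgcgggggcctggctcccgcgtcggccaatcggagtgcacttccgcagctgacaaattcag
*Btg2*: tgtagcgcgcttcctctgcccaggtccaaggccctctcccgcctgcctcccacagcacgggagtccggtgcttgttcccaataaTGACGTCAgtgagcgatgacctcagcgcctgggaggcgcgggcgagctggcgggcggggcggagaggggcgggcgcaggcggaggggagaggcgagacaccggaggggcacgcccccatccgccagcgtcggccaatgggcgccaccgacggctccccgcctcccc
*Zfp36*: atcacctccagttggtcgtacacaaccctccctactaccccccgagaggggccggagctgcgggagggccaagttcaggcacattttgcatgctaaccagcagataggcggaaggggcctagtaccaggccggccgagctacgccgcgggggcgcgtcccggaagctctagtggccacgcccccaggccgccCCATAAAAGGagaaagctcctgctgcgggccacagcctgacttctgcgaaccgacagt
*Dusp1*: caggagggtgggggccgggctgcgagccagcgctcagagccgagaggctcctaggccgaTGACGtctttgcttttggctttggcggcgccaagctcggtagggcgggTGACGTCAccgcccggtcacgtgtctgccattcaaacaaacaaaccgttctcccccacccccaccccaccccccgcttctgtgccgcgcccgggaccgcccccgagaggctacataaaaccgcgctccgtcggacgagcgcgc
*Klf2*: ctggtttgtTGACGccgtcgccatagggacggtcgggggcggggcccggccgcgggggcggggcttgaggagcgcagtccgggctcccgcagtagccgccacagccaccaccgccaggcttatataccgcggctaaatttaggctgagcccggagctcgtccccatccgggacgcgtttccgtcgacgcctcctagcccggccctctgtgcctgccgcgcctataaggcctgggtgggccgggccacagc

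The RefSeq table held 40 promoters of 31 of the 39 genes. *Fosl1*, *Egr1*, *Egr3*, *Ier2*, *Zfp36l2*, *Myc*, *Trib1* and *Nfkbiz* were not matched. The CRE core TGACG, searched on both strands and contained in every full CRE, was found in 23 of these promoters (57.5%), which belong to 17 genes, and in 17.8% of all 32851 promoters in the same window. A full TGACGTCA was found in 3 (7.5%), those of *Btg2*, *Dusp1* and *Maff*, against 1.55% of all promoters. CArG boxes were found in 6 promoters (15.0%), against 1.47%, but these belong to 3 of the 31 genes: 1 each to *Zfp36* and *Dusp5* and 4 to *Egr2*, 3 of whose windows overlap and hold the same box. The AP-1 site TGANTCA occurred in 2 promoters (5.0%, *Zfp36l1* and *Csrnp1*) against 6.75%, and the EGR site GCGTGGGCG in 1 (2.5%, *Maff*) against 0.536%. The CRE core was present in promoters of genes that rose (*Fos*, *Junb*, *Btg2*, *Dusp1*) and of genes that fell (*Klf2*, *Klf4*) within replicates 1 to 3. It was absent from those of *Zfp36*, *Zfp36l1*, *Dusp6* and *Gadd45b*, which passed in the same comparison. Promoters of genes that did not pass, such as *Fosb*, *Nr4a1*, *Nr4a2* and *Nr4a3*, held it too. A match to these letters is a description of the window and not evidence of binding.

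Over all 10 libraries, none of the 37 tested genes passed an adjusted p of 0.05 in limma on log2(normalized count + 1), and 8 had an unadjusted p under 0.05, as did 10.4% of all tested genes. Among all 13714 tested genes 9 passed (0.0656%). The median log2 fold change, *Mgp*-KO over wild type, was -0.0020 over the 37 genes and 0.03 over all tested genes. By family, the median was -0.87 for NR4A (3 tested), -0.47 for KLF (3) and 0.13 for DUSP (3) in limma and -0.40, -0.14 and 0.33 in DESeq2. For AP-1 (6) it was -0.0089 in limma and 0.84 in DESeq2. Of these genes *Fosb* had a log2 fold change of -0.0020 in limma and 1.85 in DESeq2, which gave it no p-value. *Fosb* had 775 normalized counts in *Mgp*-KO 4 and 2.34 to 79.6 in the other libraries. For EGR (3) the limma median of 0.84 was the value of *Egr2*, which had 0 reads in wild type 4 and a log2 fold change of 0.25 in DESeq2. On the reads recovered from the normalized counts edgeR also called none, whereas DESeq2 called 8 (*Fos*, *Egr1*, *Btg2*, *Zfp36*, *Dusp6*, *Trib1*, *Cited2* and *Gadd45b*), with 374 of 16549 genes called in all (2.26%). Without the library *Mgp*-KO 4, limma called 2 of the genes, *Dusp6* and *Gadd45b* (0.678% of all tested genes were called), and without *Mgp*-KO 5 it called 1, *Btg2* (0.0365%). With both left out it called 8 (*Fos*, *Egr1*, *Ier2*, *Btg2*, *Zfp36*, *Dusp6*, *Cited2* and *Gadd45b*), where 1.95% of all tested genes were called. In that fit wild type kept replicates 4 and 5 and *Mgp*-KO had replicates 1 to 3 alone. Genotype was thus partly confounded with the difference between replicates 1 to 3 and replicates 4 and 5.

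The wild-type and *Mgp*-KO libraries did not overlap over all 10 libraries for 3 of the 37 genes (8.11%), *Dusp6*, *Trib1* and *Gadd45b*, against 3.5% of all tested genes. *Dusp6*, the cytoplasmic phosphatase of ERK, had 737, 724, 986, 825 and 1734 normalized counts in wild type 1 to 5 and 418, 362, 389, 622 and 270 in *Mgp*-KO 1 to 5, and every *Mgp*-KO library lay below every wild-type one. Its log2 fold change was -1.25 (SE 0.28, adjusted p = 0.110 from limma). *Trib1*, a pseudokinase that directs C/EBP proteins to degradation, had 842, 1002, 1367, 1023 and 2348 normalized counts in wild type and 695, 517, 737, 698 and 494 in *Mgp*-KO. *Gadd45b*, a stress-inducible activator of p38 and JNK signaling, had 20.7, 24.0, 36.0, 19.1 and 29.4 normalized counts in wild type and 114, 460, 136, 42.1 and 87.9 in *Mgp*-KO. The gap between the groups was narrow for *Gadd45b*, from 36.0 in wild type 3 to 42.1 in *Mgp*-KO 4. *Trib1* had a log2 fold change of -0.98 (SE 0.27, adjusted p = 0.201 from limma) and *Gadd45b* one of 2.23 (SE 0.51, adjusted p = 0.116 from limma).

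**Figure D1:**
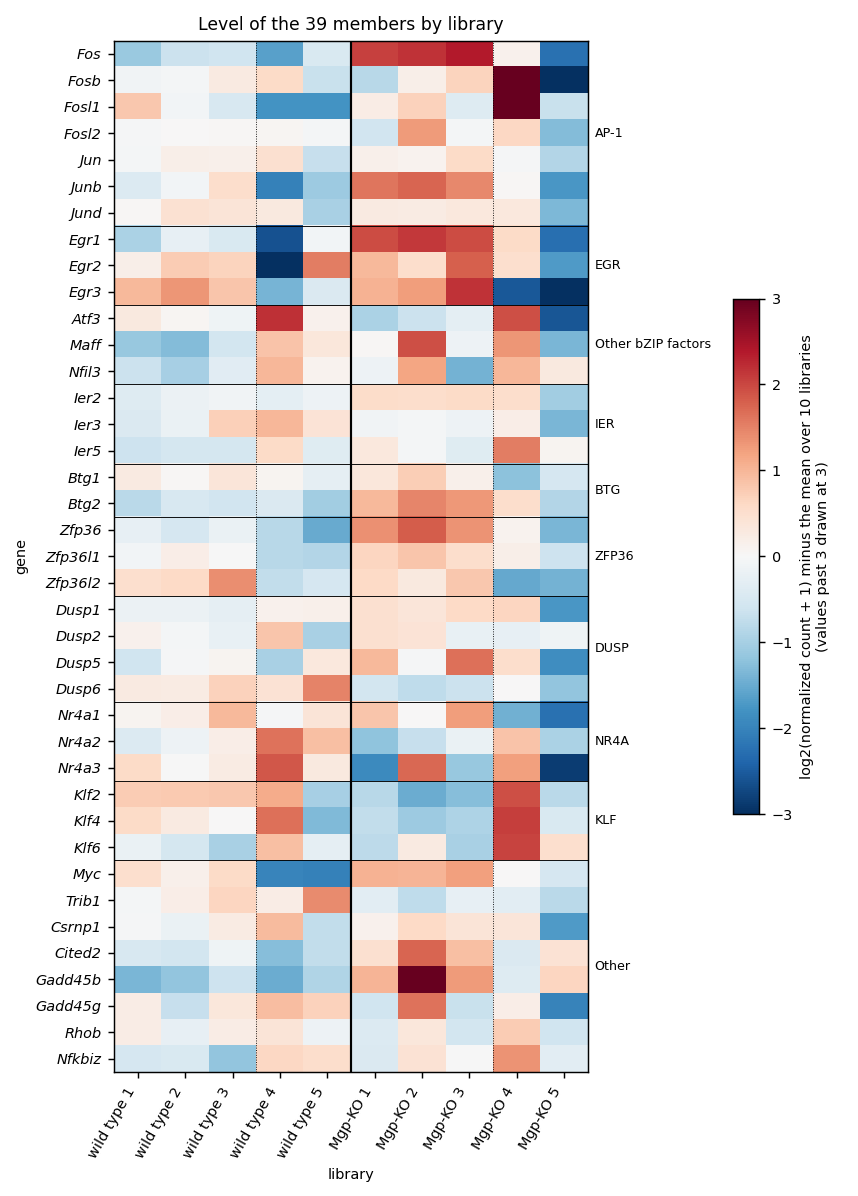
Level of the 39 genes in each library, as log2(normalized count + 1) minus the mean of the gene over the 10 libraries (color, values past 3 drawn at 3), with families separated by lines and replicates 4 and 5 to the right of the dotted lines. *Fos*, *Junb*, *Egr1*, *Btg2* and *Zfp36* are high in *Mgp*-KO 1 to 3, *Klf2*, *Klf4* and *Klf6* are highest in *Mgp*-KO 4, and *Mgp*-KO 5 is the lowest of the 10 libraries for 19 of the 37 tested genes.

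Within replicates 1 to 3, where the *Mgp* reads follow the labels, 12 of the 37 genes (32.4%) passed the threshold in limma, against 486 of the 13714 tested genes (3.54%). The authors had reported *Fos*, *Egr1*, *Btg2*, *Zfp36* and *Cited2* as raised in these data, and the genes were chosen with earlier results known. The shares here are therefore a description and not a test of the list. *Fos*, *Junb*, *Egr1*, *Ier2*, *Btg2*, *Zfp36*, *Zfp36l1*, *Dusp1* and *Gadd45b* rose in *Mgp*-KO (9 genes, 24.3%, against 1.9% of all tested genes), and *Klf2*, *Klf4* and *Dusp6* fell (3 genes, 8.11%, against 1.65%). The groups of 3 did not overlap for 19 of the 37 genes (51.4%), against 30.6% of all tested genes. The median log2 fold change was 0.36 over the 37 genes and 0.02 over all tested genes. DESeq2 called 17 of the genes, with 1348 of 15270 genes called in all (8.83%), and edgeR called 11 (3.27% of all tested genes). The count in limma was 5 without wild type 1, 5 without wild type 2, 6 without *Mgp*-KO 1 and 5 without *Mgp*-KO 3, 9 without wild type 3 and 16 without *Mgp*-KO 2, where 0.19 to 5.91% of all tested genes were called. *Fos*, *Egr1*, *Btg2*, *Zfp36* and *Klf2* were called under each of 14 other settings, which include these omissions.

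**Figure D2:**
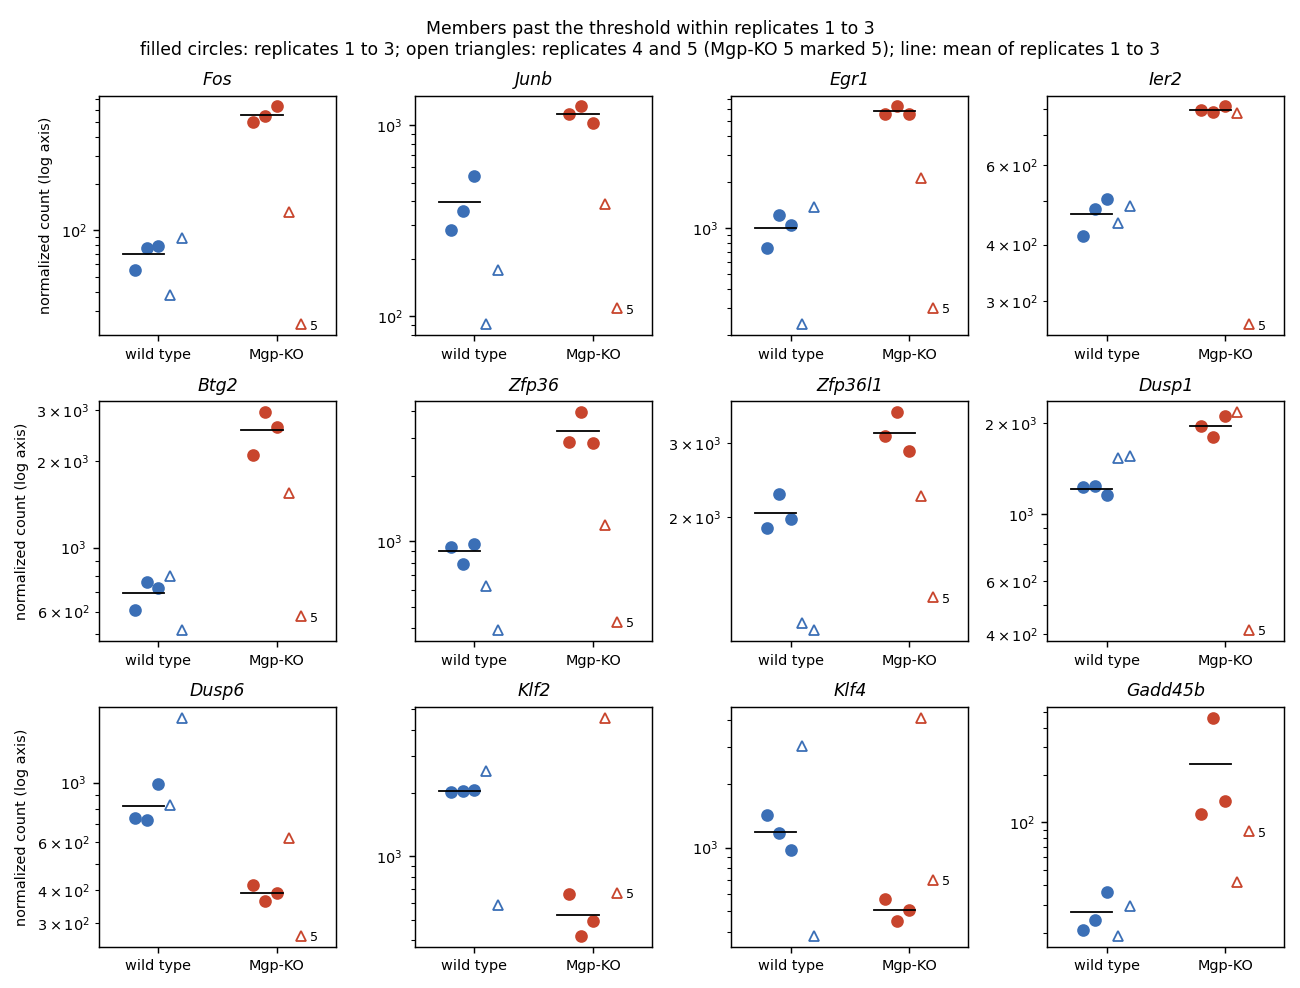
Normalized counts (log axis) of the 12 genes past the threshold within replicates 1 to 3, by genotype, with replicates 1 to 3 as filled circles, their mean as a line, and replicates 4 and 5 as open triangles (*Mgp*-KO 5 marked 5). The filled circles of the genotypes do not overlap in any panel, whereas the open triangles overlap in 9 of the 12 panels, the exceptions being *Zfp36l1*, *Dusp6* and *Gadd45b*.

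Of the AP-1 factors, *Fos* and *Junb* rose within replicates 1 to 3 and the other 4 tested did not pass. *Fos* (chr12:85473890-85477273, + strand), which pairs with a JUN protein to bind AP-1 sites, had 55.1, 76.4 and 79.4 normalized counts in wild type and 501, 544 and 631 in *Mgp*-KO. All 3 *Mgp*-KO libraries were far above all 3 of wild type, and the means differed 7.95-fold. The log2 fold change was 2.98 (SE 0.18, adjusted p = 0.00142 from limma). *Junb* (chr8:84974484-84978718, - strand), a JUN protein that restrains growth in many cells, had 284, 356 and 543 against 1140, 1250 and 1022 normalized counts. Again the groups were separate, with a log2 fold change of 1.57 (SE 0.23, adjusted p = 0.0192 from limma). The exons of *Junb* overlap those of *Prdx2* by 173 of 2301 bases. Since it is not stated whether the counting used the strand, reads of overlapping genes may not have been told apart.

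The other members of the family stayed within the spread of the libraries. *Jun*, a partner of FOS in AP-1, had 2097, 2454 and 2428 normalized counts in wild type 1 to 3 and 2408, 2328 and 3204 in *Mgp*-KO 1 to 3. *Jund*, the JUN protein expressed in resting cells, had 951, 1285 and 1217 against 1118, 1112 and 1167. Neither pair of groups was separate, and the log2 fold changes were 0.17 (SE 0.15) and -0.01 (SE 0.14). *Fosb* had 46.5, 47.9 and 61.0 against 27.9, 56.6 and 79.6 normalized counts, and *Fosl2* 821, 842 and 859 against 561, 2039 and 796. For both, the *Mgp*-KO libraries lay on either side of wild type, with *Fosl2* highest in *Mgp*-KO 2. *Fosl1*, at or near the floor, had 5.01, 2.25 and 1.47 against 3.01, 4.59 and 1.64.

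Among the EGR zinc finger factors, which bind GC-rich sites in growth and stress response genes, *Egr1* rose within replicates 1 to 3. It had 738, 1212 and 1049 normalized counts in wild type and 5577, 6246 and 5551 in *Mgp*-KO. The lowest *Mgp*-KO library was far above the highest of wild type, and the means differed 5.79-fold. The log2 fold change was 2.56 (SE 0.19, adjusted p = 0.00313 from limma). *Egr2* had 41.5, 62.1 and 58.1 against 73.1, 52.8 and 130 normalized counts, and *Egr3* 103, 132 and 94.1 against 109, 126 and 237. Both overlapped between genotypes, with the highest value in *Mgp*-KO 3, and their log2 fold changes were 0.57 (SE 0.34, adjusted p = 0.375 from limma) and 0.45 (SE 0.30, adjusted p = 0.433 from limma).

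None of the 3 NR4A orphan nuclear receptors, which cyclic AMP induces in brown adipocytes, passed within replicates 1 to 3, with unadjusted p-values of 0.436, 0.0756 and 0.415 from limma for *Nr4a1*, *Nr4a2* and *Nr4a3*, and neither edgeR nor DESeq2 called one. Without *Mgp*-KO 2, limma called *Nr4a3*, and in DESeq2 its log2 fold change was 0.12 where that of limma was -0.71. *Nr4a1* had 2029, 2200 and 3776 normalized counts in wild type and 3452, 1938 and 4584 in *Mgp*-KO. *Nr4a2* had 125, 150 and 190 against 71.6, 103 and 145, and *Nr4a3* 187, 123 and 147 against 32.4, 412 and 55.8. The genotypes overlapped for all 3 genes. *Nr4a3* was spread from 32.4 to 412 among the *Mgp*-KO libraries alone.

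Of the KLF factors, *Klf2* and *Klf4* fell within replicates 1 to 3 and *Klf6* did not pass. *Klf2* (chr8:72319033-72321656, + strand), known for its response to blood flow in endothelium and as an inhibitor of adipocyte differentiation, had 2014, 2033 and 2068 normalized counts in wild type and 661, 418 and 490 in *Mgp*-KO. The wild-type values were close together (2038 ± 27.5, SD, n = 3), and the *Mgp*-KO mean was 0.257 of theirs. The log2 fold change was -1.99 (SE 0.17, adjusted p = 0.00442 from limma). *Klf4* (chr4:55527143-55532466, - strand), which shares endothelial roles with *Klf2*, had 1432, 1170 and 969 against 574, 450 and 504. Its groups were also separate, at a log2 fold change of -1.21 (SE 0.17, adjusted p = 0.0187 from limma). *Klf6* had 1534, 1223 and 894 against 1026, 2121 and 892, which overlapped (log2 fold change 0.07, SE 0.34).

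The DUSP phosphatases went in both directions. *Dusp1* (chr17:26505590-26562128, - strand), a nuclear phosphatase of p38, JNK and ERK, had 1235, 1238 and 1159 normalized counts in wild type and 1960, 1808 and 2119 in *Mgp*-KO. It rose by 0.69 on the log2 scale (SE 0.11, adjusted p = 0.0225 from limma). *Dusp6* (chr10:99263231-99267489, + strand) fell, with values given above and a log2 fold change of -1.05 (SE 0.15, adjusted p = 0.0192 from limma). *Dusp5*, a nuclear phosphatase of ERK, had 37.9, 56.9 and 61.8 against 115, 56.6 and 184 normalized counts, and *Mgp*-KO 2 alone lay within the wild-type range. Its log2 fold change was 1.04 (SE 0.42, adjusted p = 0.203 from limma). *Dusp2* stayed between 6.57 and 11.3 in these 6 libraries. The exons of *Dusp1* overlap those of *Ergic1* by 11 of 3311 bases.

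*Zfp36*, which encodes tristetraprolin, and *Zfp36l1* rose within replicates 1 to 3, and *Zfp36l2* did not pass. *Zfp36* (chr7:28376784-28380253, - strand) had 945, 786 and 974 normalized counts in wild type and 2885, 3933 and 2848 in *Mgp*-KO, a 3.57-fold difference of means. All 3 *Mgp*-KO libraries were above all of wild type, and the log2 fold change was 1.83 (SE 0.16, adjusted p = 0.0045 from limma). *Zfp36l1* (chr12:80107754-80113013, - strand) had 1884, 2278 and 1983 against 3118, 3560 and 2872, at a log2 fold change of 0.64 (SE 0.13, adjusted p = 0.0458 from limma). It was called under 6 of the 14 other settings. *Zfp36l2* had 2070, 2187 and 3821 against 2201, 1782 and 2546, with wild type 3 highest. Both genes that rose share exonic bases with another annotated gene. *Zfp36* shares 125 of 3470 bases with *Gm44710*, and *Zfp36l1* shares 1672 of 2990 with *Gm26669*.

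*Btg2* (chr1:134075170-134079120, - strand), an antiproliferative cofactor of mRNA deadenylation, had 607, 762 and 723 normalized counts in wild type and 2093, 2954 and 2628 in *Mgp*-KO. It was separate between genotypes, 3.67-fold in the means, with a log2 fold change of 1.87 (SE 0.16, adjusted p = 0.00442 from limma). Its relative *Btg1* had 856, 737 and 925 against 903, 1195 and 792, which overlapped. *Ier2* (chr8:84661331-84662852, - strand), a nuclear immediate early protein, had 417, 479 and 504 against 796, 787 and 810, with a log2 fold change of 0.78 (SE 0.12, adjusted p = 0.0209 from limma). The 3 *Mgp*-KO values of *Ier2* differed among themselves by less than those of wild type. *Ier3*, which modulates survival and ERK signaling, had 117, 137 and 257 against 146, 151 and 142, and *Ier5* 164, 177 and 174 against 315, 242 and 196. Of these, *Ier5* was separate between genotypes but did not pass (log2 fold change 0.52, SE 0.19, adjusted p = 0.167 from limma).

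Outside these families *Gadd45b* (chr10:80930073-80932204, + strand) rose within replicates 1 to 3, by 2.83 on the log2 scale (SE 0.51, adjusted p = 0.0338 from limma), with *Mgp*-KO 2 the highest library. *Cited2*, a CBP/p300-binding coactivator, and *Myc*, the growth-promoting transcription factor, lay just short of the threshold in limma. *Cited2* had 190, 180 and 242 normalized counts in wild type 1 to 3 and 369, 891 and 497 in *Mgp*-KO 1 to 3 (log2 fold change 1.43, SE 0.31, adjusted p = 0.053 from limma). *Myc* had 274, 216 and 291 against 399, 392 and 459 (log2 fold change 0.69, SE 0.15, adjusted p = 0.0588 from limma). Both were separate between the genotypes, and DESeq2 called both, as it did *Dusp5* (DESeq2 adjusted p = 7.03e-05 for *Cited2*, 0.00945 for *Myc* and 0.0473 for *Dusp5*). *Maff*, *Nfkbiz*, *Trib1* and *Atf3* were separate too without passing in limma, the first pair higher and the last pair lower in *Mgp*-KO, with log2 fold changes of 1.59, 0.72, -0.71 and -0.70. DESeq2 called *Maff* (adjusted p = 0.00261) and *Trib1* (adjusted p = 0.0269) of these 4. The remaining *Csrnp1*, *Gadd45g*, *Rhob* and *Nfil3* overlapped between the genotypes, and their log2 fold changes were 0.36, 0.17, -0.28 and 0.54.

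Markers of cell types were read in the same libraries. The summed level of the 6 neutrophil markers was 39.3 to 52.9 normalized counts in wild type 1 to 3 and 140 to 506 in *Mgp*-KO 1 to 3, without overlap. None of the 3 that were tested passed in limma (smallest adjusted p = 0.0503, all 3 with an unadjusted p under 0.05), edgeR called 0 and DESeq2 3. The 12 brown adipocyte markers summed to 214187 to 231176 and 147360 to 187165, without overlap. Of these, 2 fell in limma, *Ucp1* and *Elovl3*, and *Ucp1* alone went from 38421 to 46191 in wild type to 2201 to 11904 in *Mgp*-KO. *Prdm16*, *Dio2* and *Plin1* were lower in each of the 3 *Mgp*-KO libraries too without passing in limma, edgeR called 1 of the 12 markers and DESeq2 5. In these fits 3.54% of all tested genes passed in limma, 3.27% in edgeR and 8.83% in DESeq2, and 22.0% had an unadjusted p under 0.05 in limma. *Cidea*, *Ppargc1a*, *Cox7a1*, *Cox8b*, *Adipoq* and *Fabp4* overlapped between the genotypes, and *Zic1* was higher in each of the 3 *Mgp*-KO libraries (133 to 328) than in wild type (65.8 to 90.4). The 9 skeletal muscle markers summed to 31246 in *Mgp*-KO 2 and 6085 in wild type 3 against 39.4 to 47.2 in the other 4 libraries. The sums of the 10 endothelial markers overlapped (17583 to 19982 and 19303 to 23596), as did those of the 10 myeloid markers (1657 to 2017 and 1429 to 2009). Of the endothelial markers, *Pecam1*, *Egfl7* and *Robo4* were higher in *Mgp*-KO without overlap, as 30.6% of all tested genes did not overlap, and the others overlapped. None of the endothelial markers passed in limma, and 2 had an unadjusted p under 0.05. The sums of the 8 adipose progenitor markers overlapped as well (10925 to 22048 and 8215 to 11081). None of these 8 passed in limma (4 with an unadjusted p under 0.05) or in edgeR, and DESeq2 called 2. Of them, *Ly6a*, *Lum* and *Col1a1* were lower and *Dcn* higher in *Mgp*-KO without overlap. *Cxcr2*, *Retnlg* and *Mmp8* of the neutrophil list were at 0 in some libraries. The part of these differences in the results was not tested, and in bulk tissue fewer cells of a type and less RNA per cell cannot be told apart.

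Within replicates 4 and 5, none of the 37 genes passed in limma, none passed in edgeR, and 7 had an unadjusted p under 0.05, as did 6.23% of all tested genes. Of all tested genes 0 passed (0.0%), with 2 libraries in each group. DESeq2 called 1 of the 37 genes, *Nr4a1*, and 0.367% of all genes. The groups of 2 did not overlap for 13 genes (35.1%), against 41.6% of all tested genes. The median log2 fold change was -0.07 over the 37 genes and 0.02 over all tested genes. By family, it was -1.90 for NR4A, 0.66 for KLF and -0.70 for DUSP in limma and -1.13, 0.69 and -0.29 in DESeq2. The medians of AP-1 (-0.10 and 0.090) and EGR (0.50 and -0.82) had opposite signs in limma and DESeq2, and *Egr2* went from 1.25 to -0.82.

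Of the 12 genes called within replicates 1 to 3, 9 overlapped between the genotypes in replicates 4 and 5. *Fos* had 38.1 and 88.3 normalized counts in wild type 4 and 5 and 131 and 24.6 in *Mgp*-KO 4 and 5, so that the *Mgp*-KO pair enclosed the wild-type pair (log2 fold change -0.02, SE 0.85). *Egr1* had 235 and 1365 against 2124 and 300, and *Zfp36* 626 and 391 against 1191 and 428. *Btg2* had 796 and 517 against 1549 and 578, and *Junb* 90.9 and 175 against 385 and 110. For *Egr1*, *Junb*, *Zfp36* and *Btg2* *Mgp*-KO 4 was above both wild-type libraries and *Mgp*-KO 5 between them. The log2 fold changes of these 4 genes were 0.50, 0.71, 0.53 and 0.56, with adjusted p-values of 0.740 to 0.886 in limma. *Klf2* had 2556 and 588 against 4536 and 671, and *Klf4* 3018 and 382 against 4084 and 702. Both KLF genes that fell within replicates 1 to 3 thus had positive values here (log2 fold changes 0.51 and 0.66, adjusted p = 0.874 and 0.851 from limma), with *Mgp*-KO 4 highest and wild type 5 lowest. *Ier2* had 447 and 488 against 785 and 266, and *Dusp1* 1538 and 1559 against 2177 and 414, so that the *Mgp*-KO pair enclosed the wild-type pair again.

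*Dusp6*, *Gadd45b* and *Zfp36l1* kept the direction they had within replicates 1 to 3 without overlap between the pairs. *Zfp36l1* had 1118 and 1076 normalized counts in wild type 4 and 5 and 2247 and 1290 in *Mgp*-KO 4 and 5. The log2 fold changes were -1.54 (SE 0.53) for *Dusp6*, 1.33 (SE 0.61) for *Gadd45b* and 0.63 (SE 0.37) for *Zfp36l1*, all with an adjusted p of 0.679 in limma. *Nr4a1* had 1900 and 2525 in wild type and 715 and 406 in *Mgp*-KO (log2 fold change -2.02, SE 0.39, adjusted p = 0.679 from limma and 0.0040 from DESeq2). *Myc* had 48.4 and 46.7 against 194 and 136 (log2 fold change 1.75, SE 0.42, adjusted p = 0.679 from limma). *Nr4a1* was thus lower and *Myc* higher in both *Mgp*-KO libraries, and with 2 libraries a group neither passed in limma.

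**Figure D3:**
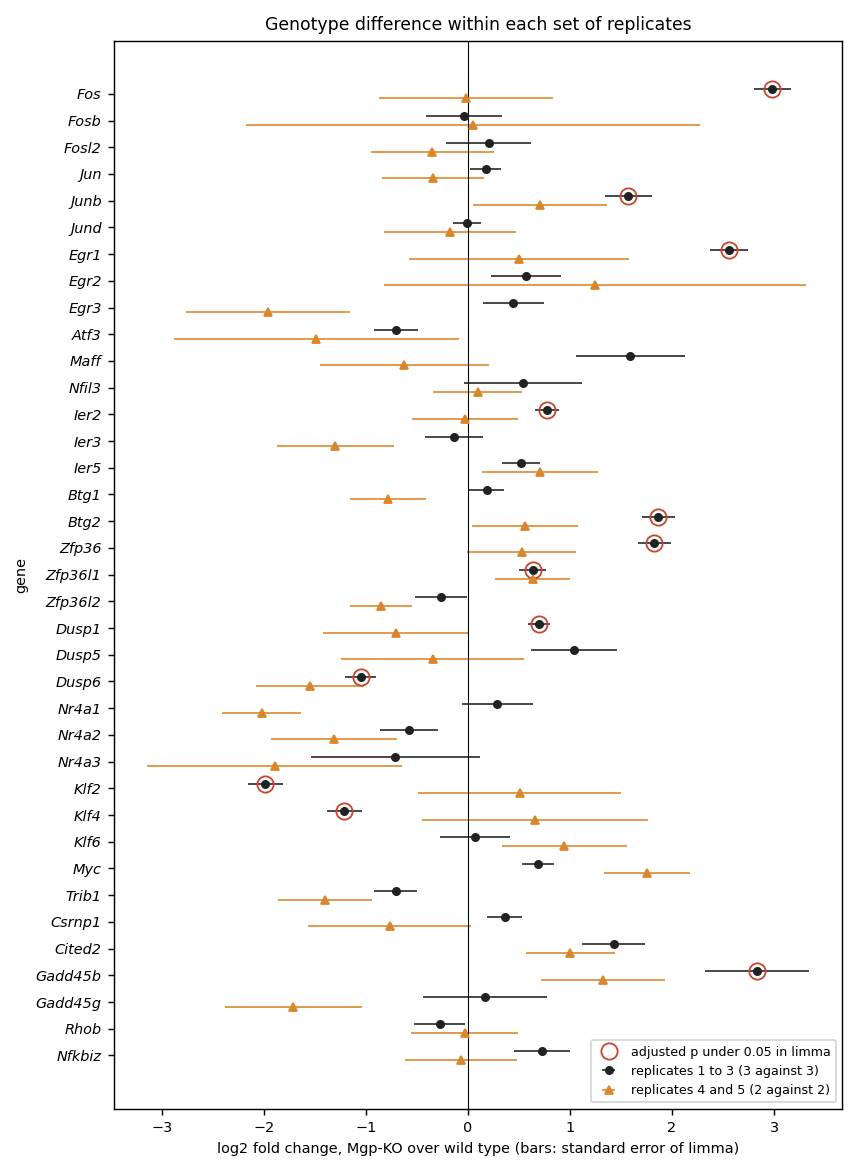
Log2 fold change of the 37 tested genes, *Mgp*-KO over wild type, within replicates 1 to 3 (black circles, 3 against 3) and within replicates 4 and 5 (orange triangles, 2 against 2), with bars of 1 standard error and red rings where the adjusted p was under 0.05. The 12 rings are all on black circles, and *Klf2* and *Klf4* lie on the left of 0 within replicates 1 to 3 and on the right within replicates 4 and 5.

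Whether the genotype difference differed between the sets was tested as an interaction, and none of the 37 genes passed in limma. Of all tested genes 1 passed (0.00729%), and 8 of the 37 had an unadjusted p under 0.05, as did 10.3% of all tested genes. EdgeR called none and DESeq2 called 1, *Nr4a1*, and 0.406% of all genes. The difference of the log2 fold changes, replicates 4 and 5 minus replicates 1 to 3, was -3.01 for *Fos* (SE 0.82, adjusted p = 0.455 from limma) and 2.49 for *Klf2* (SE 1.04, adjusted p = 0.470 from limma). Without *Mgp*-KO 4 limma called 1 of the genes, *Dusp1*, where 0.0219% of all tested genes were called. Without *Mgp*-KO 5 it called 4 of the 37, *Fosb*, *Btg1*, *Klf2* and *Myc*, where it called 1612 of the 13714 tested genes (11.8%), so that the share of the members was near the background.

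With a term for the set in the model, 5 of the 37 genes passed over all 10 libraries (13.5%), against 324 of all tested genes (2.36%). *Gadd45b* rose by 2.23 on the log2 scale (SE 0.44, adjusted p = 0.0269), *Btg2* by 1.34 (SE 0.31, adjusted p = 0.0481), *Cited2* by 1.26 (SE 0.26, adjusted p = 0.0321) and *Myc* by 1.11 (SE 0.22, adjusted p = 0.0259), all from limma. *Dusp6* had a log2 fold change of -1.25 (SE 0.26, adjusted p = 0.0321 from limma). *Cited2* had 108 and 157 normalized counts in wild type 4 and 5 and 194 and 356 in *Mgp*-KO 4 and 5. The direction of all 5 genes was therefore the same within both sets. The count rested on single libraries: limma called 1 gene without wild type 1, 0 without wild type 2, wild type 3 or *Mgp*-KO 3, 2 without wild type 5 or *Mgp*-KO 1, 3 without *Mgp*-KO 2, 5 without wild type 4, 6 without *Mgp*-KO 4 and 9 without *Mgp*-KO 5. The share of all tested genes called in these fits ran from 0.408% without wild type 3 to 4.94% without *Mgp*-KO 4. DESeq2 called 10, where it called 7.42% of all genes, and edgeR 6, where it called 2.49%. Among the cell type markers, the limma fit with the set term called *S100a9* of 3 tested neutrophil markers, higher in *Mgp*-KO (adjusted p = 0.0439 from limma). It also called *Ucp1*, *Dio2* and *Elovl3* of 12 brown adipocyte markers, all lower. The part of these markers in the results was not tested.

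Between the sets, with the genotype in the model, 11 of the 37 genes were lower in replicates 4 and 5 (29.7%), against 19.9% of all tested genes, and 3 were higher (8.11%), against 18.3%. Those lower were *Fos*, *Junb*, *Egr1*, *Egr3*, *Btg1*, *Zfp36*, *Zfp36l1*, *Zfp36l2*, *Nr4a1*, *Myc* and *Cited2*, and those higher *Nr4a2*, *Klf6* and *Nfkbiz*. Of the 6 tested AP-1 genes 2 passed in limma, and of the 3 EGR genes also 2, all of them lower in replicates 4 and 5. EdgeR did not call *Fos* or *Egr1* here, and DESeq2 called *Fos* but not *Egr1* (adjusted p = 0.162 from DESeq2). *Egr3* had 94.1 to 237 normalized counts in the 6 libraries of replicates 1 to 3 and 19.1, 38.1, 8.09 and 4.69 in wild type 4, wild type 5, *Mgp*-KO 4 and *Mgp*-KO 5, with no overlap between the sets (log2 difference -3.17, SE 0.46, adjusted p = 0.000486 from limma). *Zfp36l2* had 1782 to 3821 in replicates 1 to 3 and 499 to 1031 in replicates 4 and 5 (log2 difference -1.75, SE 0.21, adjusted p = 0.000158 from limma), and *Myc* 216 to 459 and 46.7 to 194. The sets were separate for these 3 genes in both genotypes. The 14 of 37 genes in either direction stand against 38.2% of all tested genes, which is no more than the background. The count was 8 without wild type 3 (32.4% of all tested genes) and 9 without *Mgp*-KO 1 (31.4%). The share of mitochondrial ribosomal RNA and the depth moved with the sets, and their part was not tested.

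Library *Mgp*-KO 5 had the lowest level of all 10 libraries for 19 of the 37 genes (51.4%) and the highest for 0. Among all tested genes this library was the lowest for 8.91% and the highest for 7.34%. These 19 genes include 5 of the 6 tested AP-1 genes (*Fos*, *Fosb*, *Fosl2*, *Jun* and *Jund*), all 3 tested DUSP genes, *Nr4a1* and *Nr4a3*, *Egr3*, *Atf3*, *Ier2* and *Ier3*, *Maff*, *Trib1*, *Csrnp1*, *Gadd45g* and *Rhob*. *Jund* had 363 normalized counts there and 1112 to 1167 in the other *Mgp*-KO libraries. *Dusp1* had 414 there and 1159 to 2177 in the other 9 libraries, and *Ier2* 266 against 417 to 810. Against *Mgp*-KO 4, the other library of its group in the set, 26 of the 37 genes were over 2-fold higher in *Mgp*-KO 4 (70.3%) where 12.9% of all tested genes were, and the median log2 ratio was 1.58 against 0.03. Against wild type 5, 17 of the 37 genes were over 2-fold lower in *Mgp*-KO 5 (6.71% of all tested genes were) and 3 over 2-fold higher (9.77%), with a median log2 ratio of -0.92 against 0.00 for all tested genes. The 9 skeletal muscle markers summed to 35666 in *Mgp*-KO 5, 31246 in *Mgp*-KO 2 and 314 in *Mgp*-KO 4. Of the 37 genes, *Mgp*-KO 2 was the lowest library for 1 and the highest for 12. The part of the muscle RNA in the low levels of *Mgp*-KO 5 was not tested.

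**Figure D4:**
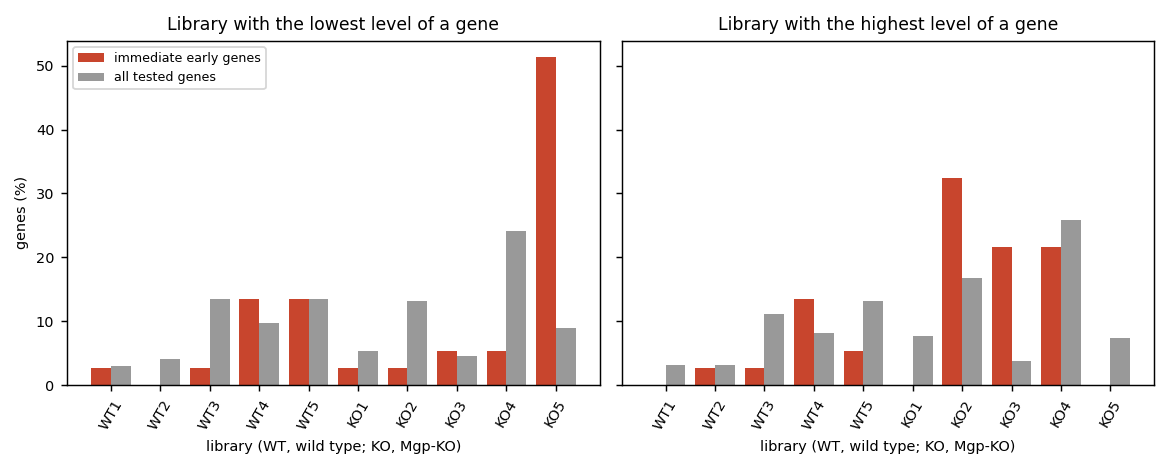
Share of genes (%) whose lowest (left) or highest (right) level over the 10 libraries fell in each library, for the 37 tested immediate early genes (red) and all 13714 tested genes (gray). *Mgp*-KO 5 (KO5) held the lowest level of 51.4% of the immediate early genes and of 8.91% of all tested genes, and *Mgp*-KO 2 (KO2) the highest level of 32.4% and 16.8%.

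*Mgp*-KO 2 was the highest of the 10 libraries for 12 of the 37 genes (32.4%, against 16.8% of all tested genes). *Mgp*-KO 4 was the highest for 8 genes (21.6%, against 25.8% of all tested genes), *Fosb*, *Ier5*, *Dusp1*, *Klf2*, *Klf4*, *Klf6*, *Rhob* and *Nfkbiz*. *Fosb* had 775 normalized counts in this library, 2.34 in *Mgp*-KO 5 and 27.9 to 79.6 in the other 8. *Fosl1*, which was not tested, had 37.2 there and 0 to 5.01 elsewhere. *Klf6*, a factor induced by injury in many tissues, had 7124 in *Mgp*-KO 4, 3269 in wild type 4 and 892 to 2490 in the rest. Wild type 4 was the highest library for *Atf3*, a stress-induced bZIP repressor, with 699, followed by *Mgp*-KO 4 with 581, where the other 8 libraries had 24.6 to 185. *Nr4a3* likewise had 456 in wild type 4, after which came 412 in *Mgp*-KO 2 and 293 in *Mgp*-KO 4. The inducible chaperone gene *Hspa1b* had 2533 normalized counts in wild type 4 and 1475 in *Mgp*-KO 4 and 22.6 to 128 in the other 8 libraries, and its near-identical copy *Hspa1a* 2207 and 1300 and 18.1 to 115. In *Mgp*-KO 4 the 5 erythroid markers summed to 101447 against 3009 to 26397 in the other libraries, and the 10 endothelial markers to 45745 against 16536 to 25507. The part of these values in the levels of *Fosb*, *Atf3* and the KLF genes was not tested.

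Levels of different genes were compared per kilobase of exon, as the mean of wild type 1 to 3. *Rhob*, a small GTPase, had the highest level at 1780 normalized counts per kilobase, followed by *Klf2* at 1104, *Gadd45g* at 789, *Zfp36l2* at 763, *Nr4a1* at 760 and *Jun* at 730. *Fosl1* (1.43), *Dusp2* (3.78), *Fosb* (8.30) and *Egr2* (15.9) were lowest. In the same libraries *Fos* stood at 29.9 and *Egr1* at 223 per kilobase, and *Jun* and *Jund* (690) were the highest of the AP-1 genes.

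The genes that transmit the signals to these promoters were read from fixed lists. Of 22 genes of the ERK pathway and its serum response factors, none passed between genotypes in limma. This held over all libraries, within replicates 1 to 3 and within replicates 4 and 5. None had an unadjusted p under 0.05 in these comparisons, where 10.4%, 22.0% and 6.23% of all tested genes did. In the same comparisons edgeR and DESeq2 called none. *Srf*, the serum response factor, had 582, 534 and 563 normalized counts in wild type 1 to 3 and 457, 595 and 545 in *Mgp*-KO 1 to 3. With the set term none of the 22 passed and 1 had an unadjusted p under 0.05, as did 2651 of the 13714 tested genes. Of 15 genes of CREB, JNK and p38 signaling, *Crtc3*, a coactivator of CREB, rose with the set term (log2 fold change 0.69, SE 0.15, adjusted p = 0.0424 from limma, where 2.36% of all tested genes passed) and none passed within either set, where 2 in each had an unadjusted p under 0.05 (22.0% of all tested genes within replicates 1 to 3 and 6.23% within replicates 4 and 5) and DESeq2 called 1 within replicates 1 to 3 (8.83% of all genes). *Crtc3* had 189 and 194 normalized counts in wild type 4 and 5, 318, 347 and 354 in wild type 1 to 3, and 320 to 478 in *Mgp*-KO. Of 9 tested feedback inhibitors of ERK none passed in limma in any genotype comparison. With the set term, 3 of the 9 had an unadjusted p under 0.05 in limma. There edgeR called 0 and DESeq2 3, where it called 7.42% of all genes. Within replicates 1 to 3, 5 of the 9 had an unadjusted p under 0.05, as did 22.0% of all tested genes, edgeR called 0 and DESeq2 2, where it called 8.83% of all genes.

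Of 19 tested further primary response genes, 2 rose within replicates 1 to 3 in limma, *Cyr61* and *Plk2*, against 1.9% of all tested genes, and none fell. By edgeR 2 of the 19 passed (3.27% of all tested genes) and by DESeq2 7 (8.83%). *Cyr61*, a secreted matricellular protein, had 753, 849 and 911 normalized counts in wild type and 1926, 4111 and 2415 in *Mgp*-KO (log2 fold change 1.68, SE 0.26, adjusted p = 0.0225 from limma). In replicates 4 and 5 it had 1003 and 796 in wild type and 856 and 322 in *Mgp*-KO, where *Mgp*-KO 5 was again the lowest of the 10 libraries. *Plk2*, a polo-like kinase induced by serum and stress, had 257 to 317 in wild type and 466 to 1085 in *Mgp*-KO, without overlap over the 10 libraries. Its log2 fold change was 1.19 (SE 0.22, adjusted p = 0.0366 from limma) within replicates 1 to 3 and 1.32 (SE 0.21, adjusted p = 0.0140 from limma) with the set term. With the set term *Cebpb* and *Pim1* fell, by 1.06 and 1.13 on the log2 scale (adjusted p = 0.0420 and 0.0242 from limma), so that 3 of the 19 passed against 2.36% of all tested genes. Of 8 heat shock genes 3 fell within replicates 1 to 3 in limma, *Hspa1a*, *Hspa1b* and *Hsph1*, against 1.65% of all tested genes, and 5 were higher in replicates 4 and 5 than in replicates 1 to 3, against 18.3%. *Hsph1* had 486, 448 and 321 normalized counts in wild type 1 to 3 and 232, 200 and 209 in *Mgp*-KO 1 to 3 (log2 fold change -0.95, SE 0.18, adjusted p = 0.0373 from limma). Those of *Hspa1a* and *Hspa1b* were -1.84 and -1.77, and reads of these near-identical copies may have been shared between them.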

How the data were processed

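Total RNA of iBAT was sequenced by the authors as single reads of 50 bases. Per the methods and the labels, reads were mapped with STAR to mm10, counted on genes, and divided by DESeq2 size factors, so the deposited values are a signal of normalized counts (27267 genes, 10 libraries). The annotation release and the strand setting are not given in the sources used here. Reads were recovered by dividing each library by its smallest step, which gave whole numbers for 100% of values (tolerance 0.01 reads).

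Genes with a mean of at least 10 (13714) were tested with limma 3.58.1 (R 4.3.3, mean-variance trend) on log2(normalized count + 1), a scale that understates changes of low genes, with Benjamini-Hochberg adjustment over all of them. The design assumed this unit. Genotype was fitted over the 10 libraries without and with the set (replicates 1 to 3, or 4 and 5) as a covariate, within each set, and in interaction with the set, and the sets were compared with genotype as a covariate. Alternatives were other pseudocounts and filters, edgeR 4.0.16, DESeq2 1.42.0, the replicate block, no trend, equal upper quartiles, and each library left out; equal upper quartiles within a set were chosen after seeing the data. The limma, edgeR and DESeq2 fits were tested on simulated data.

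The genes, families and lists were chosen with earlier results of these data known. Named are the members past the threshold in a comparison, all members of the families, and, of the other lists, genes past the threshold in a genotype comparison (at most 4 a list). Single cell type markers were named outside this rule, whether or not they passed. *Srf*, *Xist* and the Y chromosome genes were named after their values were seen. Gene coordinates are from GENCODE vM21 (GRCm38) and promoters from RefSeq (GRCm38.p6). The mice are separate animals per the methods.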

Additional observations from a re-analysis of the deposited data

Results flagged for a closer look

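In a group of 5 libraries, a value was marked when its gap to the nearest other library, on the log2 scale, as a part of the range of the group exceeded Dixon's critical value for 5 libraries. This held for 11 of 74 combinations of gene and group, where 7.39% of all tested genes in wild type and 7.79% in *Mgp*-KO met it, and chance marks about 1 in 20 groups.

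*Mgp*-KO 5 lay far below the other 4 *Mgp*-KO libraries for *Jund* (363.4 normalized counts against 1112 to 1167), *Ier2* (266.1 against 785 to 810), *Ier3* (59.8 against 142 to 181), *Dusp1* (413.8 against 1808 to 2177) and *Csrnp1* (84.4 against 306 to 419). *Mgp*-KO 4 lay far above the others for *Klf2* (4536 against 418 to 671) and *Klf4* (4084 against 450 to 702). Wild type 4 lay far above the other wild-type libraries for *Atf3* (699.2 against 140 to 185) and *Ier5* (375.2 against 164 to 196) and far below for *Egr2*, with 0.0 against 41.5 to 107, where the floor of 3 reads in this library was 4.40 normalized counts. Wild type 5 lay far below the others for *Klf2* (588.3 against 2014 to 2556).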

How the results depend on the processing

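The count of members past the threshold depended on the tool and on single libraries. Over all 10 libraries it was 0, and it became 8 in DESeq2 and 0 to 2 with 1 library left out. It was also 8 with *Mgp*-KO 4 and 5 left out but wild type 4 and 5 kept, which partly confounds genotype with the set. With the set term it was 5, 10 in DESeq2 and 0 to 9 with 1 library left out. Within replicates 1 to 3 it was 12, 6 without a filter on low values, where the share of all genes called went from 3.54% to 0.466%, and 5 to 16 with 1 library left out. Within replicates 4 and 5 it was 0 and 1 in DESeq2. For the interaction it was 0, 1 in DESeq2 and 0 to 4 with 1 library left out, the 4 without *Mgp*-KO 5, where 11.8% of all tested genes were called, and between the sets 14, and 8 to 15. The cause was not tested. Equal upper quartiles changed the sign of 0 members in limma over all libraries and within either set.

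With the replicate number as a block, limma called 4 members over all 10 libraries (*Btg2*, *Myc*, *Cited2* and *Gadd45b*, against 1.97% of all tested genes), the same 4 in place of the set term, and 9 within replicates 1 to 3 (against 1.93%), without *Ier2*, *Zfp36l1* and *Dusp1*. Same-numbered libraries had correlated deviations from their group means of 0.0559 to 0.527 (mean 0.390), other numbers of the same set 0.416, and 5 of 10 libraries correlated best with their own number, so the numbers were not taken to pair the mice. The methods speak of 5 pairs of mice, without saying what pairs them or that a replicate number marks a pair.

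Signs of the log2 fold changes over all 10 libraries, within replicates 1 to 3 and within replicates 4 and 5 were followed under the alternatives for the 21 members past the threshold in at least 1 comparison. Those that changed had not passed in that comparison. Signs with the set term and between the sets were compared only between limma and DESeq2, and those of the interaction were not compared. Over all 10 libraries *Egr3* became 0.32 in edgeR, 0.33 in DESeq2 and 1.23 without *Mgp*-KO 4 and 5, where *Btg1* became 0.31, *Zfp36l2* 0.32, *Nr4a1* 0.38 and *Klf6* -0.28. That omission set *Mgp*-KO 1 to 3 against wild type 1 to 5, so genotype was partly confounded with the set. For *Egr3* the log2 difference between the sets was -3.17 in limma, and the genotype difference within replicates 1 to 3 was 0.45. With 1 library left out the ranges were -1.12 to 0.22 (*Egr3*), -0.41 to 0.081 (*Btg1*), -0.0083 to 0.59 (*Dusp1*) and -0.033 to 0.72 (*Klf6*), and within replicates 1 to 3 -0.42 to 0.017 (*Zfp36l2*) and -0.31 to 0.31 (*Klf6*). Within replicates 4 and 5 *Fos* became 0.024 at a pseudocount of 10, *Fos*, *Ier2* and *Nfkbiz* became 0.28, 0.15 and 0.14 in edgeR and 0.27, 0.14 and 0.13 in DESeq2, and the ranges with 1 library left out were -1.21 to 1.16 (*Fos*), -0.19 to 1.60 (*Junb*), -0.91 to 1.91 (*Egr1*), -0.81 to 0.75 (*Ier2*), -0.15 to 1.27 (*Btg2*), -0.21 to 1.27 (*Zfp36*), -1.90 to 0.49 (*Dusp1*), -0.87 to 1.89 (*Klf2*), -0.83 to 2.14 (*Klf4*) and -0.90 to 0.76 (*Nfkbiz*). With 1 library left in an arm, that library was assumed to vary like the others. Of the 12 genes called within replicates 1 to 3, *Fos*, *Egr1*, *Btg2*, *Zfp36* and *Klf2* passed under all 14 other settings, *Klf4* under 10, *Junb*, *Ier2* and *Dusp6* under 9, *Gadd45b* under 8, *Dusp1* under 7 and *Zfp36l1* under 6. Of the other members, DESeq2 gave the opposite sign to limma for *Fosb* (-0.0020 and 1.85) and *Fosl2* (-0.016 and 0.25) over all 10 libraries and with the set term (1.15 and 0.24 in DESeq2), for *Fosb* (-0.034 and 0.068) and *Nr4a3* (-0.71 and 0.12) within replicates 1 to 3, for *Egr2* (1.25 and -0.82) and *Rhob* (-0.033 and 0.066) within replicates 4 and 5, and for *Fosb* (-0.047 and 1.58) between the sets, the limma value first. Depth limits *Fosl1* outside *Mgp*-KO 4 (0 to 7 reads) and *Dusp2* (2 to 15 reads), where the floor was 3 reads.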
